A study of Mus musculus with 7 samples.

Results

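The TAM receptors Axl, Mertk and Tyro3 and the bridging proteins Gas6 and Mfge8 were followed as 5 genes in the hearts of NSG-DR1 mice. They were taken from the count table by exact gene symbol. All 5 were found among 20343 genes, and all 5 passed the filter on low counts, which left 7667 tested genes. RNA sequencing of polyadenylated RNA from the apical myocardium gave 7 libraries, 1 per heart. The 4 control hearts came from untreated mice, and the 3 transferred hearts from mice that had received human CD4+ T cells 6 weeks earlier. Mice of both groups carried the label NSG-DRB1*0101, an immunodeficient strain with a human class II transgene. NSG mice lack mature T, B and natural killer cells of their own but keep myeloid cells such as macrophages and neutrophils, and no group received control cells. Age, sex, cell dose and T cell donor are not given in the sources used here.

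TAM receptors are receptor tyrosine kinases that take their name from the first letters of Tyro3, Axl and Mer. They recognise dying cells through bridging proteins. Gas6 binds phosphatidylserine on the dying cell with a domain that needs vitamin K dependent carboxylation, and binds all TAM receptors with its other end. Mfge8, also called lactadherin, binds phosphatidylserine too, but it engages alpha v integrins instead of TAM receptors. The uptake of dying cells, called efferocytosis, is carried out in the heart largely by macrophages, where Mertk is a widely used marker. Axl is also made by fibroblasts and vascular cells, and both Axl and Mertk restrain innate immune signalling. In bulk tissue, a change in the number of cells that make a transcript and a change in transcript per cell cannot be told apart.

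The upstream sequences of Gas6 and Mertk are shown because they belong to the bridging protein whose groups separated and to the macrophage receptor whose groups overlapped. Each is the 250 bases before the RefSeq start in build GRCm38.p6, read 5′ to 3′ on the strand of the gene, and capitals mark GC boxes (GGGCGG on either strand). The windows are chr8:13494536-13494785 on the minus strand for Gas6 and chr2:128698665-128698914 on the plus strand for Mertk.

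Gas6: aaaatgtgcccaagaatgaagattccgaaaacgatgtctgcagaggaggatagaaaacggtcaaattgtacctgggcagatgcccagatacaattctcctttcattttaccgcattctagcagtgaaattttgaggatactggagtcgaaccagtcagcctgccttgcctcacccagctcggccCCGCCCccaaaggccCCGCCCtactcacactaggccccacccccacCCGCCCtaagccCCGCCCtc

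Mertk: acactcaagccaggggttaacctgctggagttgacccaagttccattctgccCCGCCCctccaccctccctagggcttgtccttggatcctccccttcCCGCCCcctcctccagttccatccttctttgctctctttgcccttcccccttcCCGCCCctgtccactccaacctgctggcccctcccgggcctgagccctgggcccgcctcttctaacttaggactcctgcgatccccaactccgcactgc

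Sites of 4 kinds were searched on both strands in the 250 bases of all 5 genes. GC boxes were found 4 times in Gas6, 4 times in Mfge8, 3 times in Mertk, 3 times in Tyro3 and 1 time in Axl, and 32.7% of 32851 promoters held at least 1. The interferon response core GAAANNGAA (7.13% of promoters), the STAT core TTCNNNGAA (7.02%) and the nuclear receptor site AGGTCA (14.02%) had 0 matches in all 5 windows. The Axl window lay partly, by 191 of its 250 bases, inside the span the table gives to Axl, and the Tyro3 window lay wholly inside the span of Tyro3, so neither is printed.

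Over the analysed part of the genome, which ends early on chromosome 8, the libraries held between 16402194 and 25190580 counts. Heart muscle markers were abundant, with 8 cardiomyocyte genes summing to between 128563 and 157127 CPM (counts scaled to library size) in a heart. Sums of 9 endothelial markers lay between 3916 and 5035 CPM, of 7 fibroblast markers between 4614 and 7388 CPM, and of 4 mural cell markers between 6328 and 8094 CPM. The mural and fibroblast sums each rested largely on 1 gene. In control hearts the mean of Des was 4923 CPM in a mural sum of 7206 CPM. That of Gsn was 3884 CPM in a fibroblast sum of 5747 CPM. These sums therefore do not rank the cell types by amount. The 10 lymphocyte markers summed to between 28.5 and 38.3 CPM, with Klrb1c among those at 0 in every heart. Marker sums of neutrophils (5 genes) lay between 8.87 and 12.01 CPM in control hearts and were 12.2, 258.5 and 36.7 CPM in transferred hearts 1, 2 and 3. Those of 16 interferon response genes lay between 350.3 and 401 CPM in control hearts and were 2232, 718 and 412 CPM in transferred hearts 1, 2 and 3. By list, the 2 most abundant markers per length had log2 fold changes of 0.13 (Tnnt2) and -0.17 (Actc1) for cardiomyocytes, 0.11 (Dpt) and 0.16 (Gsn) for fibroblasts, 0.01 (Fabp4) and 0.06 (Cav1) for endothelium, and -0.20 (Rgs5) and -0.09 (Des) for mural cells. They were 4.07 (S100a8) and 3.73 (S100a9) for neutrophils, 2.01 (Isg15) and 3.89 (Irf7) for the interferon response, 0.35 (Cd4) and -0.13 (Cd28) for lymphocytes, and -0.02 (Pparg) beside Fabp4 for adipocytes. In the edgeR test all of these missed the adjusted threshold, but other members of these lists did not. The endothelial water channel Aqp1 was lower after transfer, at 839 ± 97.5 CPM (SD, n = 4) against 417 ± 67.7 CPM (SD, n = 3), without overlap (log2 fold change -1.01, edgeR adjusted p = 0.0384). Of the 9 endothelial markers 6 had a positive log2 fold change, and 1 was higher and 2 were lower at an unadjusted p-value under 0.05. The interferon-induced Oas2 was higher (log2 fold change 1.29, edgeR adjusted p = 0.0384). The calls of Aqp1 and Oas2 each held in 2 of 7 fits that left out a heart, those without transferred heart 1 or 3. Both genes were chosen after their values were seen, and the part of these lists in the members' values was not tested. The spread of the summed neutrophil and interferon response markers was wider among transferred hearts (SD 135.7 and 974 CPM) than among control hearts (SD 1.45 and 21.8 CPM).

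Levels per length gave the order of the members within the heart. Gas6 stood highest, at 173 ± 17.4 CPM per kilobase of exon (SD, n = 4) in the control group and 208 ± 2.56 (SD, n = 3) after transfer. Mfge8 followed at 144 ± 22.2 and 145 ± 25.05, and the order of these neighbours was turned in 1 of 7 hearts, so their levels overlapped. Axl, at 40.4 ± 5.02 and 50.4 ± 8.57 CPM per kilobase, was the main TAM receptor transcript. Mertk was at 3.23 ± 0.229 and 3.41 ± 0.270, and Tyro3 at 1.19 ± 0.241 and 1.29 ± 0.1796. In each of the 7 hearts Mfge8 exceeded Axl, Axl exceeded Mertk by 11.9 to 19.0 times, and Mertk exceeded Tyro3 by 2.13 to 3.90 times. Of the tested genes, 95.04% had a lower level per length than Gas6, 82.6% lower than Axl and 20.8% lower than Tyro3.

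**Figure D1:**
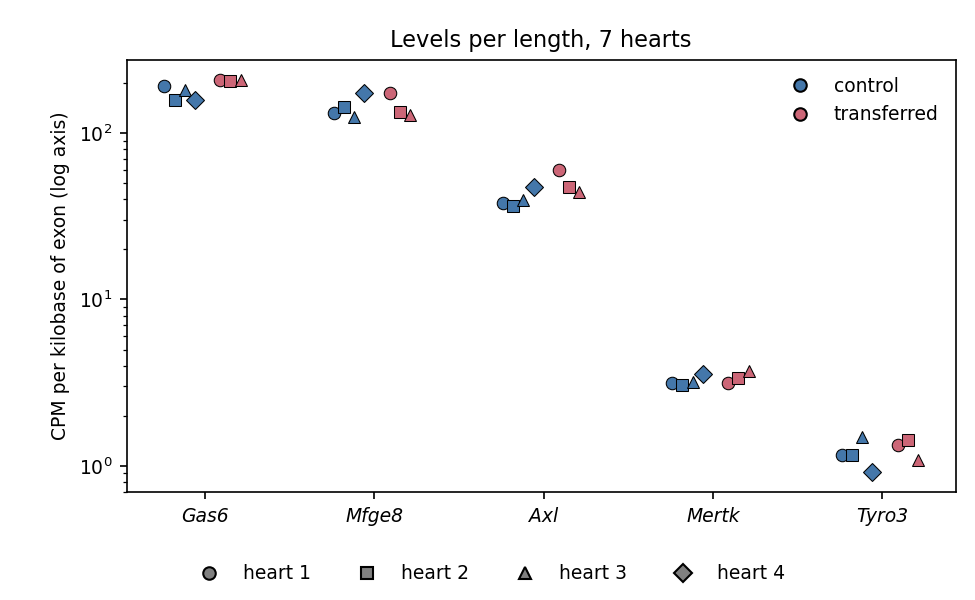
Level per length of the 5 members, as CPM per kilobase of exon on a log axis; each point is 1 heart (4 control, 3 transferred). Gas6 and Mfge8 overlap at the top, Axl lies below both, and Mertk and Tyro3 are lowest.

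None of the 5 members was called between the groups. In the edgeR quasi-likelihood test 0 of 5 had an adjusted p-value under 0.05, and 2 of 5, Axl and Gas6, had an unadjusted p-value under 0.05, both higher in transferred hearts. Only Gas6 did so without control heart 1, 2 or 3, without transferred heart 1, or without the 2 hearts whose identifiers have letters. Over all tested genes, 0.235% passed the adjusted threshold, and 7.17% were higher after transfer at an unadjusted p-value under 0.05. In 1 of 5 members, Gas6, all transferred hearts lay above all control hearts, which held for 5.99% of tested genes. DESeq2 and limma-voom also called 0 members, with 2 at an unadjusted p-value under 0.05 in each.

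Axl (chromosome 7, 25756500 to 25788924, minus strand, GRCm38) encodes the TAM receptor whose main ligand is Gas6. Its level in control hearts 1 to 4 was 199.7, 192, 209 and 251 CPM, and in transferred hearts 1 to 3 it was 317, 249 and 232 CPM. Transferred heart 1 was the highest of all hearts, but control heart 4 lay above transferred hearts 2 and 3, so the groups overlapped. The means were 213 ± 26.5 CPM (SD, n = 4) and 266 ± 45.2 CPM (SD, n = 3), a fold change of 0.32 on the log2 scale, standard error 0.13 (edgeR adjusted p = 0.334, unadjusted 0.0298). Its 95% interval ran from 1.03-fold to 1.52-fold. Without transferred heart 1 the log2 fold change was 0.18 (edgeR adjusted p = 0.507). The interferon response genes were in the same heart at their highest sum, 2232 CPM, and their part in the Axl values was not tested.

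Mertk (chromosome 2, 128698915 to 128803162, plus strand) encodes the receptor that macrophages use for engulfment. Control hearts 1 to 4 had 15.9, 15.4, 16.2 and 18.1 CPM, and transferred hearts 1 to 3 had 16.1, 17.1 and 18.8 CPM. The lowest and the highest transferred heart lay on either side of control heart 4, and the groups overlapped. With means of 16.4 ± 1.16 CPM (SD, n = 4) and 17.3 ± 1.37 CPM (SD, n = 3), the log2 fold change was 0.08, standard error 0.11 (edgeR adjusted p = 0.840). The 95% interval, from 0.885-fold to 1.26-fold, leaves room for a modest change in either direction.

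Tyro3 (chromosome 2, 119797740 to 119818104, plus strand) encodes the TAM receptor best known from the nervous system. It rested on 73 to 197 counts per heart. Values were 5.88, 5.85, 7.56 and 4.61 CPM in control hearts 1 to 4 and 6.74, 7.24 and 5.48 CPM in transferred hearts 1 to 3. All transferred hearts lay within the range of the control hearts. The fold change of 0.11 on the log2 scale had a standard error of 0.20 (edgeR adjusted p = 0.868), and the 95% interval reached from 0.792-fold to 1.48-fold.

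Gas6 (chromosome 8, 13465374 to 13494535, minus strand) encodes the bridging protein shared by the TAM receptors. Its values were 499.6, 412, 471 and 407 CPM in control hearts 1 to 4 and 540.2, 531 and 543 CPM in transferred hearts 1 to 3. Every transferred heart was above every control heart, and the transferred hearts lay close together, with a coefficient of variation of 1.23% against 10.1% in control hearts. Group means were 447 ± 45.2 CPM (SD, n = 4) without transfer and 538 ± 6.63 CPM (SD, n = 3) with it. This gave a fold change of 0.27 on the log2 scale, standard error 0.09 (edgeR adjusted p = 0.259, unadjusted 0.0131) and a 95% interval from 1.05-fold to 1.38-fold. Gas6 overlaps Tmem255b on the other strand, and whether counting used the strand is not given in the sources used here. Tmem255b had 296 to 498 counts per heart, at most 5.74% of the Gas6 count, and a fold change of -0.19 on the log2 scale.

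Mfge8 (chromosome 7, 79133768 to 79149060, minus strand) encodes the bridging protein of the integrin route. Control hearts 1 to 4 had 282, 303, 264 and 372 CPM, and transferred hearts 1 to 3 had 369, 283 and 272 CPM. Control heart 4 and transferred heart 1 were the highest, and the other hearts of both groups lay together. The means were 305 ± 47.3 CPM (SD, n = 4) and 308 ± 53.3 CPM (SD, n = 3), with a fold change of 0.01 on the log2 scale, standard error 0.14 (edgeR adjusted p = 0.983). Its 95% interval was 0.812-fold to 1.25-fold, and the sign turned when hearts were left out, with a fold change of -0.14 on the log2 scale without transferred heart 1. Control heart 4 and transferred heart 1 also held the highest Axl values, as seen in the plot of CPM by heart.

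**Figure D2:**
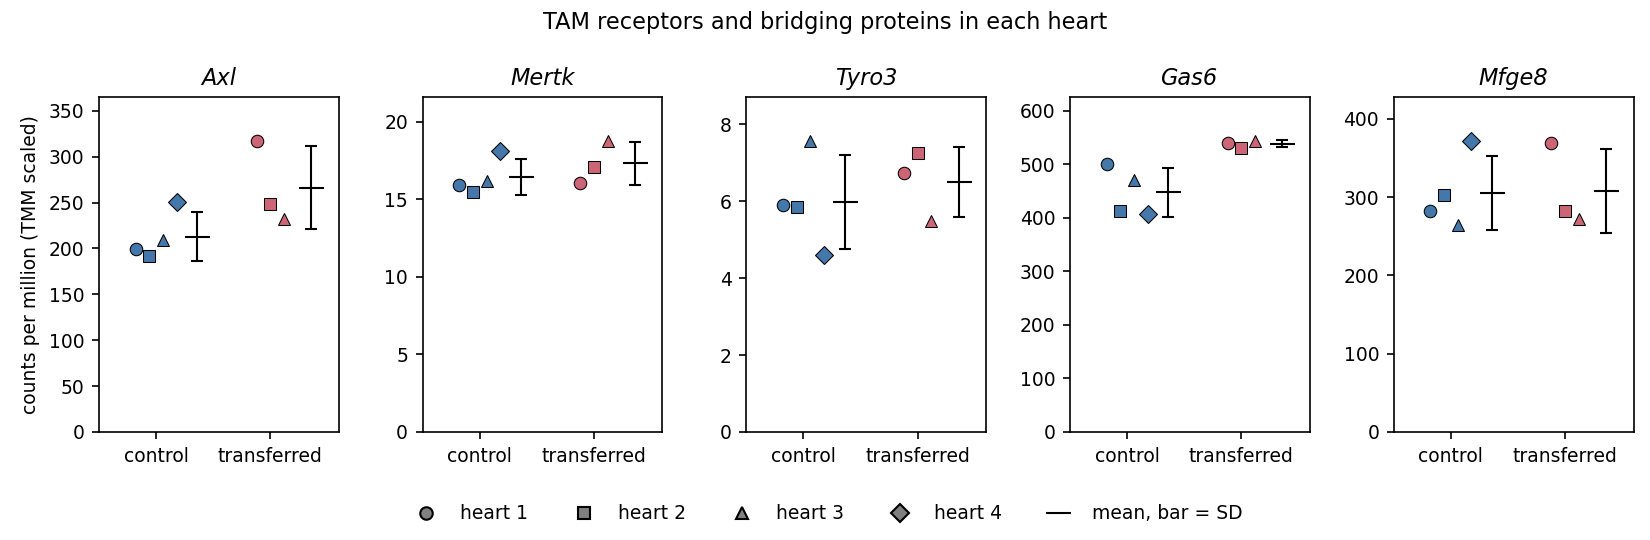
TMM-scaled CPM of the 5 members in each heart, with the group mean and SD beside the points (control n = 4, transferred n = 3); the vertical axis of each panel starts at 0 and has its own scale. Gas6 separates the groups, and the other 4 members overlap.

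The animals' identifiers have letters in control heart 1 and transferred heart 1 and digits only in the other 5 hearts. The labels do not say what the form stands for. Within the 3 control and 2 transferred hearts with digits, the difference in mean log2 CPM was 0.15 for Axl, 0.11 for Mertk, 0.10 for Tyro3, 0.32 for Gas6 and -0.16 for Mfge8. Between the 2 hearts with letters it was 0.67 for Axl, 0.01 for Mertk, 0.19 for Tyro3, 0.11 for Gas6 and 0.39 for Mfge8. The sign was therefore the same in both for every member except Mfge8. The hearts with letters are 1 against 1, so their differences have no measure of spread, and that of Mertk was near 0.

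The balance between members was compared within hearts, where the scaling between libraries cancels. Axl made up 90.1 ± 0.905% (SD, n = 4) of the receptor transcripts per length without transfer and 91.3 ± 1.51% (SD, n = 3) with it. Mertk made up 7.25 ± 0.301% and 6.32 ± 1.35%, with its lowest share, 4.89%, in transferred heart 1. The log2 ratio of Axl to Mertk was 0.24 higher after transfer (exact two-sided permutation p = 0.257), and that of Axl to Tyro3 was 0.19 higher (exact permutation p = 0.486). Without transferred heart 1 these differences were 0.05 and 0.08. Without transferred heart 3 the first was 0.39, and the second was 0.06 without control heart 3, 0.38 without control heart 4 and 0.31 without transferred heart 2. Differences were -0.05 for Mertk to Tyro3, -0.04 for Gas6 to Axl and -0.26 for Mfge8 to Gas6 (exact permutation p = 0.80, 0.771 and 0.314). Mertk to Tyro3 turned to 0.11 without control heart 4, 0.03 without transferred heart 1 and 0.04 without transferred heart 2, and was -0.18 without control heart 3 and -0.23 without transferred heart 3. Gas6 to Axl turned to 0.04 without control heart 1 and 0.09 without transferred heart 1, and was -0.17 without control heart 4 and -0.14 without transferred heart 3. Both were positive without the 2 hearts with letters. Mfge8 to Gas6 was -0.12 without control heart 4, -0.40 without transferred heart 1 and -0.17 without transferred heart 3. Adjusted over 10 ratios, which include those to macrophage markers, none of these 5 had an adjusted p-value under 0.429. The ratios of Axl, Mertk and Mfge8 to macrophage markers had the smallest exact p possible. Their place in the family made this adjusted value smaller than adjustment over the 5 alone would. The Axl share lay between 89.4% and 93.0% in all 7 hearts.

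Macrophage markers had higher levels in transferred hearts than in control hearts, by more than any of the 5 members. Of 20 macrophage markers on the list, 14 were in the table and tested. Their mean log2 CPM was 5.12 ± 0.23 (SD, n = 4) without transfer and 6.02 ± 0.35 (SD, n = 3) with it, and their summed level was 588 to 870.4 CPM against 1003 to 1503 CPM. All 14 had a positive log2 fold change, with a median of 0.90 against -0.002 over all tested genes. In the edgeR test 2 of 14, C1qb and Mrc1, had an adjusted p-value under 0.05 (0.0384 each), and all 14 had an unadjusted p-value under 0.05, against 0.235% of all tested genes called and 7.17% higher at the unadjusted threshold. In 11 of 14 all transferred hearts lay above all control hearts, against 5.99% of all tested genes. Itgam, Ptprc, Tyrobp, Fcer1g and Laptm5 on this list are also made by neutrophils. Of these, Itgam, Ptprc and Tyrobp were highest in transferred heart 2, where the neutrophil markers summed to 258.5 CPM. Fcer1g and Laptm5 were highest in transferred heart 1. The peak in transferred heart 2 was not particular to these genes, as C1qb, C1qc, Cd163, Mrc1 and Lyve1 were also highest there. Fcgr1, C1qa, Folr2 and Ctss were highest in transferred heart 1. In transferred heart 1 the neutrophil sum was 12.2 CPM and the macrophage sum 1412 CPM. At an unadjusted p-value under 0.05, 5 of 5 neutrophil markers and 14 of 16 interferon response genes were higher as well, and their part in the macrophage list values was not tested. The calls of C1qb and Mrc1 each held in 1 of 7 fits that left out a heart, the one without transferred heart 3, and the edgeR adjusted p reached 0.157 in the others. The complement genes C1qa and C1qc, the most abundant markers per length, had log2 fold changes of 0.93 and 0.84 (edgeR adjusted p = 0.0618 each). For comparison, the log2 fold change was 0.08 for Mertk and 0.68 for Folr2, the smallest among the markers.

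**Figure D3:**
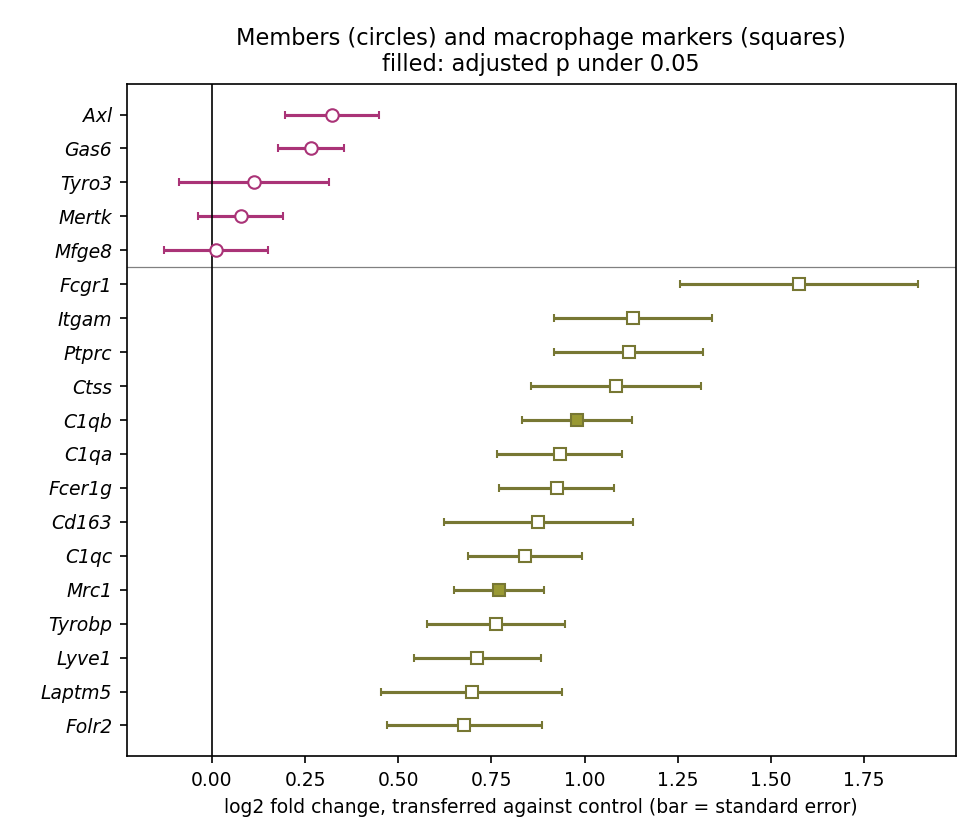
Log2 fold change of the 5 members (circles) and 14 macrophage markers (squares), transferred against control hearts, with standard errors; filled symbols mark an edgeR adjusted p-value under 0.05. The members lie between 0.01 and 0.32 and the markers between 0.68 and 1.58.

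The level of each member was then set against these markers within the same heart, as its log2 CPM minus the mean log2 CPM of the 14 markers. The markers were already known to be higher after transfer, so a lower ratio restates that difference for a member that differs less, and these ratios are a description without a test. The share of all tested genes whose ratio would separate the groups likewise is not given. For Mertk this was -1.10, -1.11, -0.85 and -1.23 in control hearts 1 to 4 and -2.14, -2.18 and -1.38 in transferred hearts 1 to 3. All transferred hearts were below all control hearts, with a difference in means of -0.83. Mfge8 gave 3.03, 3.18, 3.17 and 3.12 in control hearts and 2.37, 1.86 and 2.47 in transferred hearts. Its difference was -0.89, again without overlap, and the SD was 0.07 in control hearts against 0.33 in transferred hearts. Axl differed by -0.59, its groups did not overlap either, and control heart 3 stood highest at 2.84. The differences for Tyro3 and Gas6 were -0.78 and -0.63, and their groups overlapped. Without the complement and Fc receptor genes among the markers the differences were -0.53 for Axl, -0.77 for Mertk and -0.83 for Mfge8.

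**Figure D4:**
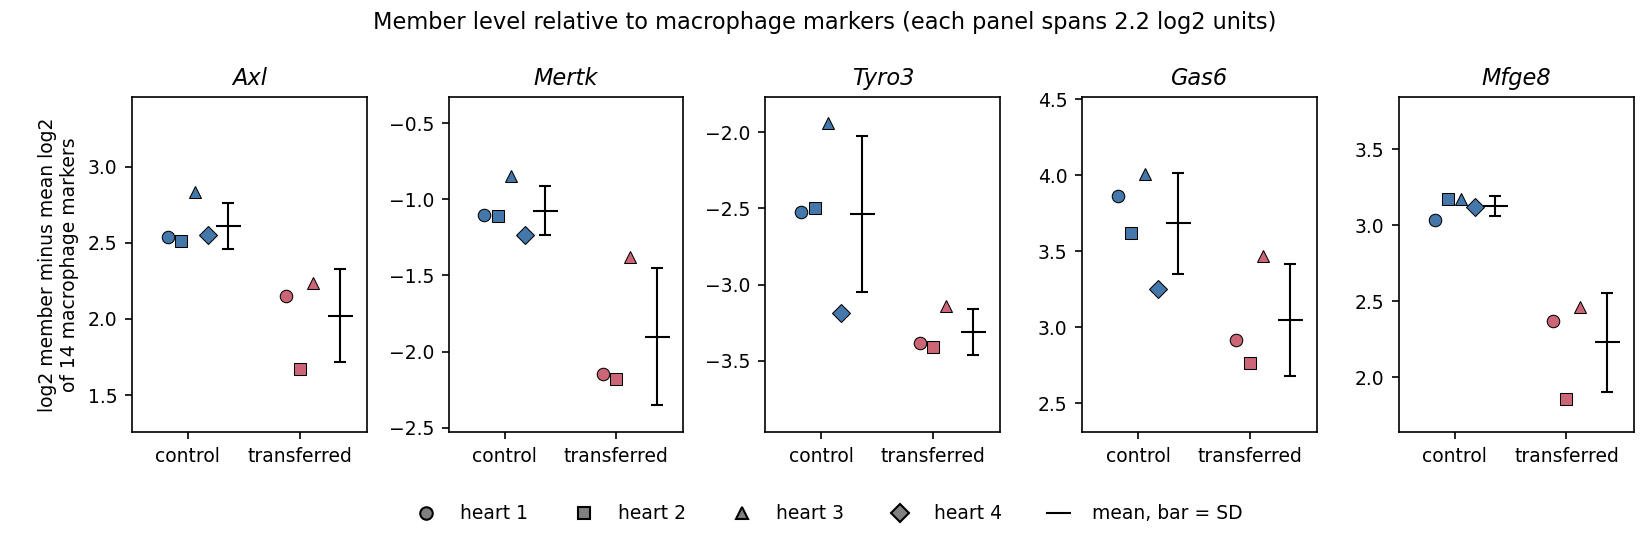
Log2 CPM of each member minus the mean log2 CPM of 14 macrophage markers in each heart, with group mean and SD (control n = 4, transferred n = 3); each panel spans the same number of log2 units. Transferred hearts lie below control hearts without overlap for Axl, Mertk and Mfge8, and overlap them for Tyro3 and Gas6. The markers were already known to be higher after transfer, so lower ratios restate that difference.

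The other efferocytosis genes were read from 6 lists by role, which held 105 genes. Of these, 43 were in the table and 40 were tested. In the edgeR test 1 of 40 had an adjusted p-value under 0.05, and 5 of 40 had an unadjusted p-value under 0.05, all higher in transferred hearts, where 7.17% of all tested genes were higher and 5.27% lower at that threshold. Their median log2 fold change was 0.02, and 22 of 40 were positive. All transferred hearts lay above all control hearts in 5 of 40 and below them in 2 of 40, which held for 5.99% and 5.22% of all tested genes.

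Among the other bridging molecules, 7 of 16 were tested and the complement subunit C1qb was the 1 called. C1q coats dying cells and links them to phagocytes. C1qb was at 94.0, 92.8, 73.1 and 110.8 CPM in control hearts 1 to 4 and at 186, 211 and 150.2 CPM in transferred hearts 1 to 3, without overlap (log2 fold change 0.98, standard error 0.15, edgeR adjusted p = 0.0384). C1qa, C1qb and C1qc are also on the macrophage list. Annexin A5 (Anxa5), which binds phosphatidylserine, and thrombospondin 1 (Thbs1), which bridges dying cells to Cd36 and integrins, had log2 fold changes of 0.005 and -0.03. Ccn1, a matrix protein that also bridges dying cells to integrins, was lower without overlap, at 133 ± 44.2 CPM (SD, n = 4) and 94.8 ± 1.88 CPM (SD, n = 3), and missed the threshold (log2 fold change -0.49, edgeR adjusted p = 0.411). The list's median log2 fold change was 0.56, but C1qa, C1qb and C1qc make up 3 of its 7 tested genes, and the other 4 lay between -0.49 (Ccn1) and 0.56 (Ptx3). The count of called genes over the 6 lists was 3 without transferred heart 3 and 0 without any other single heart.

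Of 25 other receptors, 4 were tested, and 0 reached an unadjusted p-value under 0.05. The scavenger receptor Cd36, which is abundant in heart muscle and endothelium, had a fold change of 0.12 on the log2 scale (edgeR adjusted p = 0.644), and Scarb1, another scavenger receptor, had -0.25 (edgeR adjusted p = 0.451), with all transferred hearts, at most 72.8 CPM, below all control hearts, at least 73.0 CPM. The highest Scarb1 value was 97.8 CPM in control heart 4. Itgav, the alpha v integrin subunit that pairs to form the Mfge8 receptor, was at 59.6 ± 7.64 CPM (SD, n = 4) and 58.2 ± 7.48 CPM (SD, n = 3). All 10 engulfment and digestion genes in the table were tested, and 0 reached an unadjusted p-value under 0.05. Among them, Ucp2, a mitochondrial carrier used by phagocytes after engulfment, had a fold change of 0.41 on the log2 scale (edgeR adjusted p = 0.559), and the cholesterol exporter Abca1 had -0.19 (edgeR adjusted p = 0.611). Rac1, the GTPase that drives the engulfing cup, had a fold change of 0.06 on the log2 scale.

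Signals that attract or repel phagocytes were covered by 3 tested genes. Sirpa, the receptor of the don't-eat-me signal Cd47, was at 104 ± 5.43 CPM (SD, n = 4) and 124 ± 12.3 CPM (SD, n = 3), without overlap between the groups (log2 fold change 0.25, edgeR adjusted p = 0.278). S1pr1, a receptor of the attracting lipid sphingosine 1-phosphate, had a fold change of 0.21 on the log2 scale (edgeR adjusted p = 0.656).

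Genes that control the TAM system were represented by 11 tested genes, of which 0 had an adjusted p-value under 0.05 in edgeR's test. Nr1h3 and Nr1h2, the liver X receptors that induce Mertk, had log2 fold changes of 0.28 and 0.10 (edgeR adjusted p = 0.491 and 0.723). The enzymes that serve Gas6 carboxylation had log2 fold changes of -0.09 for the carboxylase Ggcx, 0.21 for the vitamin K reductase Vkorc1 and -0.10 for its relative Vkorc1l1. None of these 3 had an edgeR adjusted p-value under 0.532. Downstream of the receptors, 5 genes were tested, and 0 reached an unadjusted p-value under 0.05. The kinase Akt2 and the phospholipase Plcg1 had the smallest p-values, with log2 fold changes of 0.12 and -0.12 (edgeR adjusted p = 0.640 and 0.625).

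The genes whose levels followed each member most closely over the 7 hearts were picked from 7004 tested genes with a mean of at least 1 CPM, by Pearson correlation of log2 CPM. The points share libraries and scaling factors, and the highest of so many correlations are given as a description. For Axl these were Folr2 (r = 0.97), a marker of resident macrophages, Ly9 (0.97, a receptor of leukocytes) and Pdcl (0.96). Folr2 was highest in transferred heart 1 at 60.7 CPM and next in transferred heart 2 at 39.5 CPM, followed by control heart 4 at 35.4 CPM, and the same 3 hearts held the highest Axl values. With group means subtracted, the genes nearest to Axl were Capza1 (0.98), Emilin1 (0.98) and Col3a1 (0.97), the last a fibrillar collagen of fibroblasts. Mertk was followed by Ddx55 (0.98), Kcnn3 (0.96) and Napepld (0.96), none of them a macrophage marker on the list. With group means subtracted these were Gpr155 (0.98), Ddx55 (0.98) and Ift22 (0.97).

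Tyro3 ran closest to Ctdspl2 (r = 0.99), Abca4 (0.97) and C1galt1 (0.96), and after subtraction of group means to Cog6, Ctdspl2 and C1galt1 (0.99 each). Gas6 ran closest to Zfp94 (0.99) and Gm19601 (0.97), and after subtraction to Trappc3 (0.99), 1500004A13Rik (0.98) and Rab28 (0.98). For Mfge8 the nearest were Steap3 (0.99), Suv39h2 (0.99) and Aar2 (0.98), and after subtraction Suv39h2, Steap3 and Psmf1 (0.99 each). None of the genes named here without subtraction had an edgeR adjusted p-value under 0.05.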

How the data were processed

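Polyadenylated RNA of 7 mouse hearts was sequenced, 4 control and 3 transferred. Per the submitters' processing notes, STAR 2.7.2b, featureCounts 1.6.4 and build GRCm38.p6 were among the tools and references used. The authors deposited unnormalized estimated counts per gene, and per the submitters' processing notes featureCounts was among the tools that made them. Of the deposited values 4.63% were not whole numbers, and all were rounded before testing. All 5 members had whole counts in every heart. The table analysed held 20343 complete rows, from chromosomes 1 to 7 and chromosome 8 up to a start at 25129815; 1 incomplete row was left out, and other genes are not analysed here. Column totals are therefore sums over these genes, and 3 counts equal 0.119 to 0.183 CPM. This floor covers counting error only.

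Genes were filtered with filterByExpr, scaled by TMM and tested with the edgeR 4.0.16 quasi-likelihood test (robust estimation) in R 4.3.3, with Benjamini-Hochberg adjustment over 7667 genes at 0.05. CPM values are TMM-scaled. Intervals of fold changes use the standard error and the degrees of freedom of this test. Log2 values use a prior count of 2. Within-heart ratios between members were tested with exact two-sided permutation over 35 splits and adjusted over 10 ratios, of which the 5 to macrophage markers are given as a description only. Scripts were tested on simulated data. Upstream sequences came from RefSeq (GRCm38.p6), where 5 of 5 members matched. DESeq2 1.42.0, limma-voom 3.58.1, other scalings and filters, a covariate for the identifier form and left-out hearts were the alternatives. Members, gene lists and tests were chosen with earlier results of these data known, and the macrophage list had already been seen to be higher. The genes named beside the members are those past the threshold in each role list, or else the 2 with the smallest p-value, the 2 most abundant markers per length, and the 3 most correlated genes per member; others were named after their values were seen. Some genes that this rule names are not reported here. The labels do not say that hearts of a group were independent in litter or cage, so p-values measure the spread between these hearts.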

Additional observations from a re-analysis of the deposited data

Results flagged for a closer look

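In the group of 4 control hearts, 44 results were checked for 1 heart far from the other 3, and 3 were marked, where chance marks about 1 in 20, or 2.2. The log2 ratio of Axl to the macrophage markers reached 2.84 in control heart 3, while the remaining controls lay between 2.51 and 2.55. The log2 CPM of Scarb1 reached 6.61 in control heart 4, while the remaining controls lay between 6.19 and 6.23. The log2 CPM of the endothelial marker Cav1 reached 9.93 in control heart 4, while the remaining controls lay between 9.59 and 9.60.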

How the results depend on the processing

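The count of members past the threshold was 0 in all 17 alternatives. The log2 fold changes of Axl, Mertk, Tyro3 and Gas6 were positive in all 17, with ranges of 0.15 to 0.41, 0.02 to 0.13, 0.01 to 0.25 and 0.22 to 0.33 (lowest adjusted p 0.207, 0.675, 0.648 and 0.145). The log2 fold change of Mfge8 was -0.0086 with the identifier form as a covariate, -0.17 without the 2 hearts with letters, and from -0.14 to 0.12 when 1 heart was left out. The count of efferocytosis list genes, 1, became 3 with total count scaling, 2 when every gene with 1 count or more was kept, 3 under DESeq2, and 0 with limma-voom, with the covariate and without the hearts with letters. It lay between 0 and 3 when 1 heart was left out, and was 0 without any 1 of the 4 control hearts or of transferred hearts 1 and 2. The whole table gave 18 called genes, 35 with total count scaling, 81 when every gene with 1 count or more was kept, 238 with DESeq2, 0 with limma-voom (907 at an unadjusted p-value under 0.05), 0 with the covariate (973) and 0 without the hearts with letters (1054), and 0 to 140 when 1 heart was left out. The log2 ratio of Mertk to Tyro3 differed by 0.018 without the hearts with letters and by -0.23 to 0.11 when 1 heart was left out. Gas6 to Axl differed by 0.17 and by -0.17 to 0.087 in the same fits. Axl to Mertk, Axl to Tyro3 and Mfge8 to Gas6 kept their direction, at 0.04, 0.06 and -0.49 without the hearts with letters and over ranges of 0.05 to 0.39, 0.06 to 0.38 and -0.40 to -0.12 when 1 heart was left out. For each of these changes the cause was not tested. The ratios to macrophage markers ranged over their alternatives from -1.09 to -0.69 for Mertk, -1.01 to -0.71 for Mfge8 and -0.70 to -0.41 for Axl. They ranged from -0.99 to -0.58 for Tyro3 and -0.84 to -0.49 for Gas6. The markers were already known to be higher after transfer, so the shared direction restates that difference and is not a test of the members. For the ratios between members, the smallest exact p possible is 0.1 with 1 control heart left out or without the hearts with letters. Spearman correlation shared 0 of 3 nearest genes with Pearson for Axl, Gas6 and Mfge8, 1 for Tyro3 and 2 for Mertk. No paired analysis was possible because the labels do not pair the hearts. Other scalings moved the median of all tested genes by at most 0.015 on the log2 scale.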

Other observations

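Of the efferocytosis genes in the table, 3 were under the filter on low counts. Olr1, a scavenger receptor for oxidised lipoprotein and dying cells, had 5, 2, 6 and 0 counts in control hearts 1 to 4 and 12, 21 and 3 in transferred hearts 1 to 3, so the groups overlapped. Tub, which encodes another ligand of Mertk, had 32 counts summed over the control hearts and 23 over the transferred hearts. Siglecg was at 0 in every heart.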
